A study of Homo sapiens with 6 samples.

Results

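The ATP-binding cassette (ABC) transporters measured here are the 43 genes whose symbol is ABC, a subfamily letter from A to G and a number, out of 18404 genes tested. They were found by symbol among array probe sets annotated to a single gene, and 1 gene, ABCB8, had 3 such probe sets, of which the brightest was used. The cells were MEC-1, an established human B cell line derived from chronic lymphocytic leukaemia. In 3 samples a lentiviral short hairpin RNA (shRNA) targeted UGT2B17, which couples steroids and drugs to glucuronic acid, and 3 samples received a scrambled shRNA by the same route. All 6 were grown in RPMI medium with fetal calf serum, without phenol red or antibiotics, and RNA from each was hybridised to 1 Affymetrix array. The labels do not give the number of hairpins, the time after transduction, or whether replicates were separate cultures, and the p-values reflect no more than the spread among these 6 samples. A response to less UGT2B17, an off-target action of the hairpin and a difference between cultures cannot be told apart.

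Most ABC proteins use the energy of ATP to move substrates across membranes. Transporters of the family work through a pair of ATPase domains coupled to membrane-spanning segments, which either sit in a single long chain or come together when shorter chains pair up. The family is known for multidrug efflux, for moving sterols and phospholipids, for carrying drug conjugates such as glucuronides out of cells, and for peroxisomal and mitochondrial transport. Members of subfamilies E and F have no membrane segments and act on ribosomes. In chronic lymphocytic leukaemia the efflux pumps are studied for their part in drug resistance.

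Values below are log2 signals after RMA (robust multi-array average), a method that corrects background, equalises the arrays and combines the probes of each probe set. A difference of 1 is a doubling. Signals of different probe sets are not on a common scale, so a level says only whether a probe set was dim or bright on these arrays, and fold changes are taken within a gene. UGT2B17 itself was lower in the knockdown by its own single-gene probe set, from 3.85 ± 0.14 to 3.21 ± 0.05 (SD, n = 3 each; limma adjusted p = 0.00654), or 1.55-fold, and this probe set is dim. Of 3 further probe sets annotated to UGT2B17 together with related genes, those with 2 and 5 symbols read 2.54-fold and 2.84-fold lower (limma adjusted p = 0.0137 and 0.0265 over all probe sets), and the dim one with 7 symbols read 1.16-fold lower (0.226). The B cell markers averaged 10.82 to 10.93 on every array over 7 measured genes of 8. Averages of T and NK cell, monocyte and granulocyte, erythroid and platelet, and epithelial and fibroblast markers lay between 4.70 and 6.71, and none of the marker genes passed. Single markers of these types were brighter, such as CD7 and CDH1, at 8.30 and 8.30 with scrambled shRNA and 8.34 and 8.45 with the knockdown. Scrambled replicate 3 stood furthest from its group. It held the highest value of 17 of the 43 members, and of 28.9% of all genes, more than any other array. It also held the lowest value of 8 members, and of 24.2% of all genes, the largest share of any array over all genes.

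Of the 43 members, ABCB1 was higher in the knockdown, ABCA6 and ABCA9 were lower, and 40 did not pass (limma, Benjamini-Hochberg adjusted p under 0.05 over all genes). ABCB1, ABCA6 and ABCA9 all had mean levels below the median probe set, at 5.85, 5.50 and 5.14, which limits what can be read for them. The 3 calls are 6.98% of the members, where 3.61% of all genes passed, 1.92% higher and 1.69% lower. The knockdown and scrambled arrays did not overlap for 11 members, 4 higher and 7 lower, where 24.8% of all genes did not overlap, 11.8% higher and 13.1% lower. An unadjusted p under 0.05 was found for 8 members, or 18.6%, against 18.2% of all genes; 4 were in subfamily A, 3 in B and 1 in F, with 0 in C, D, E and G. By these last counts the family as a whole lay near the background of the comparison.

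Most members differed little between the groups, and a few differed by more. The median log2 fold change was −0.025 over the members and −0.0022 over all genes, and 25 of 43 members lay below 0. Differences smaller than 0.1 in size were found for 26 members, or 60.5%, against 56.4% of all genes. Differences above 0.5 were found for 4 members, ABCA5, ABCA6, ABCB1 and ABCF2, or 9.3% against 1.62% of all genes. Of these 4, ABCA5 and ABCF2 did not pass. Without scrambled replicate 3 only ABCB1 stayed above 0.5, 2.33% of the members against 1.41% of all genes, and with any other array left out 3 or 4 members did. The members' standard errors ran from 0.059 for ABCC13 to 0.21 for ABCF2.

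**Figure D1:**
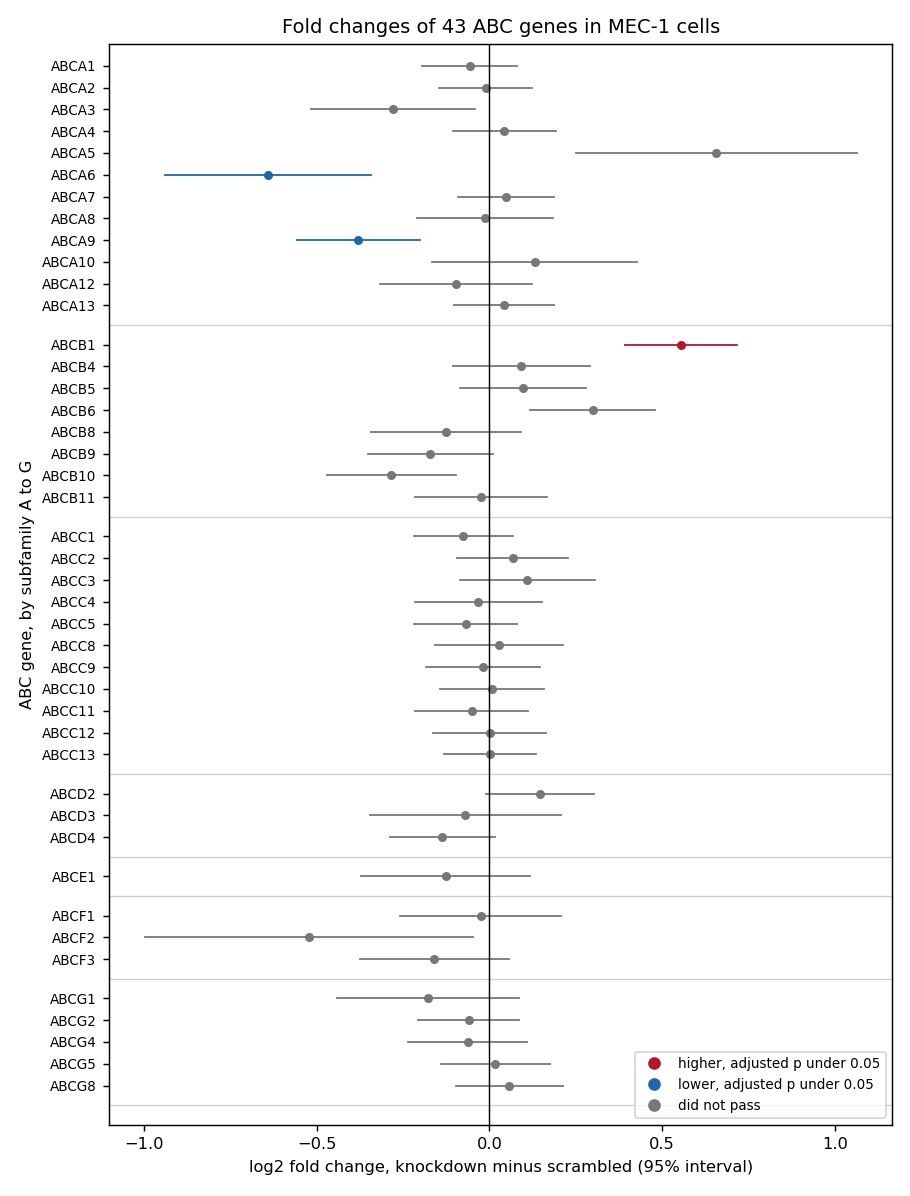
Log2 fold change (knockdown minus scrambled, horizontal axis) of the 43 ABC genes, grouped by subfamily letter from A to G. Points are estimates and lines 95% intervals from limma (3 arrays per group). ABCB1 lies to the right at 0.56, ABCA6 and ABCA9 lie to the left at −0.64 and −0.38, and the 11 members of subfamily C all lie between −0.08 and 0.11.

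ABCB1, the multidrug efflux pump also called P-glycoprotein, was the member with the smallest p. Its promoter is shown because it is the only member that passed upward. The RefSeq table (GRCh38.p14) gives 2 starts for this gene. The window at chr7:87600835-87601134, on the minus strand, runs from 250 bases before the downstream start to 50 after it. Capitals mark each match, on either strand, to the motifs searched: CCAAT, the TATA box TATAAA, the GC box GGGCGG, the antioxidant response core TGACNNNGC and the aryl hydrocarbon response core GCGTG.
ABCB1: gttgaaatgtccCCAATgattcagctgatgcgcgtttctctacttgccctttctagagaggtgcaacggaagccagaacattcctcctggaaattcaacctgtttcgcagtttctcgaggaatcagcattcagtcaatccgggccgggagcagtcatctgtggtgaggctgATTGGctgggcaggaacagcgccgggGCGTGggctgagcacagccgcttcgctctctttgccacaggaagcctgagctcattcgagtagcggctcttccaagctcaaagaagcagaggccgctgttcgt
It holds CCAAT at 2 places, 238 and 79 bases before the start, the second on the reverse strand, and GCGTG 53 bases before it, with no overlap between matches. The window has 55.3% G and C. The window of the upstream start, 37.7% G and C, has no match to any of the 5 motifs. Which start MEC-1 cells use was not tested. CCAAT is found in 34.6% of the 35116 windows of the table and GCGTG in 36.5%, so such matches are common, and a match is not a binding site.

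ABCB1 read 5.58, 5.57 and 5.56 on scrambled replicates 1 to 3 and 6.003, 6.18 and 6.19 on knockdown replicates 1 to 3. The scrambled arrays were nearly identical, every knockdown array lay above them, and the gap between the groups was 0.42. The mean was 5.57 ± 0.01 with scrambled shRNA and 6.12 ± 0.11 with the knockdown (SD, n = 3 each). This is a log2 fold change of 0.56 ± 0.07 (SE; 95% interval 0.39 to 0.72), or 1.47-fold higher (limma adjusted p = 0.00654). With each array left out in turn the value ran from 0.52 to 0.62 and the call held, with an adjusted p of 0.00996 to 0.0457.

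ABCB4, which flips phosphatidylcholine into bile, is the closest relative of ABCB1 and its neighbour on chromosome 7. It read 6.50, 6.71 and 6.51 on the scrambled and 6.54, 6.69 and 6.77 on the knockdown arrays, and the groups overlapped. Its log2 fold change of 0.09 ± 0.09 (SE; 95% interval −0.11 to 0.29) did not pass (limma adjusted p = 0.648). The log2 ratio of ABCB4 to ABCB1 within each array was 1.01 ± 0.12 with scrambled shRNA and 0.54 ± 0.04 with the knockdown (SD, n = 3 each). That ratio was lower on every knockdown array, with a difference of −0.46 ± 0.07 (SE). An exact permutation test (two-sided) gave p = 0.1, which is the floor for 3 against 3 arrays, and 0.2 after Benjamini-Hochberg adjustment over 8 such pairs. The pair was chosen after the values had been seen. With ABCB1 already called and ABCB4 little changed, the ratio largely restates the change of ABCB1 and is not separate support.

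Genes on either side of this pair give the local context. RUNDC3B, next to ABCB1 in gene order, read 0.25 ± 0.08 (SE) higher with groups that did not overlap, and did not pass (adjusted p = 0.166). The other measured neighbours, CROT, TP53TG1 and TMEM243 before the pair and SLC25A40 and DBF4 after it, had log2 fold changes between −0.04 and 0.08. Among the 8 measured genes from TMEM243 to DBF4, ABCB1 was the one that passed.

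Of the other 6 members of subfamily B, none passed, and the mitochondrial and lysosomal members lay on both sides of 0. ABCB6, a porphyrin transporter, read 8.45, 8.22 and 8.28 on the scrambled and 8.70, 8.55 and 8.60 on the knockdown arrays. Its groups did not overlap, with a log2 fold change of 0.30 ± 0.08 (SE; limma adjusted p = 0.0825). Without scrambled replicate 1 the value was 0.36 and passed (adjusted p = 0.046). ABCB10, of the mitochondrial inner membrane and linked to haem synthesis, read 8.77, 8.74 and 8.99 on the scrambled and 8.54, 8.49 and 8.62 on the knockdown arrays. Its groups did not overlap either, with a log2 fold change of −0.28 ± 0.08 (adjusted p = 0.107).

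ABCB9, a lysosomal peptide transporter, had a log2 fold change of −0.17 ± 0.08 (SE; adjusted p = 0.308), with every knockdown array below every scrambled array and a gap of 0.038 between the groups. ABCB8, a second mitochondrial member, read −0.13 ± 0.10 on the probe set used and 0.09 and 0.03 on its dimmer probe sets, so the direction was not shared. ABCB5 and the bile salt pump ABCB11 were dim, at mean levels of 3.81 and 3.89, and had log2 fold changes of 0.10 and −0.02. Over the 8 members of the subfamily the median was 0.03, with 4 above and 4 below 0.

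**Figure D2:**
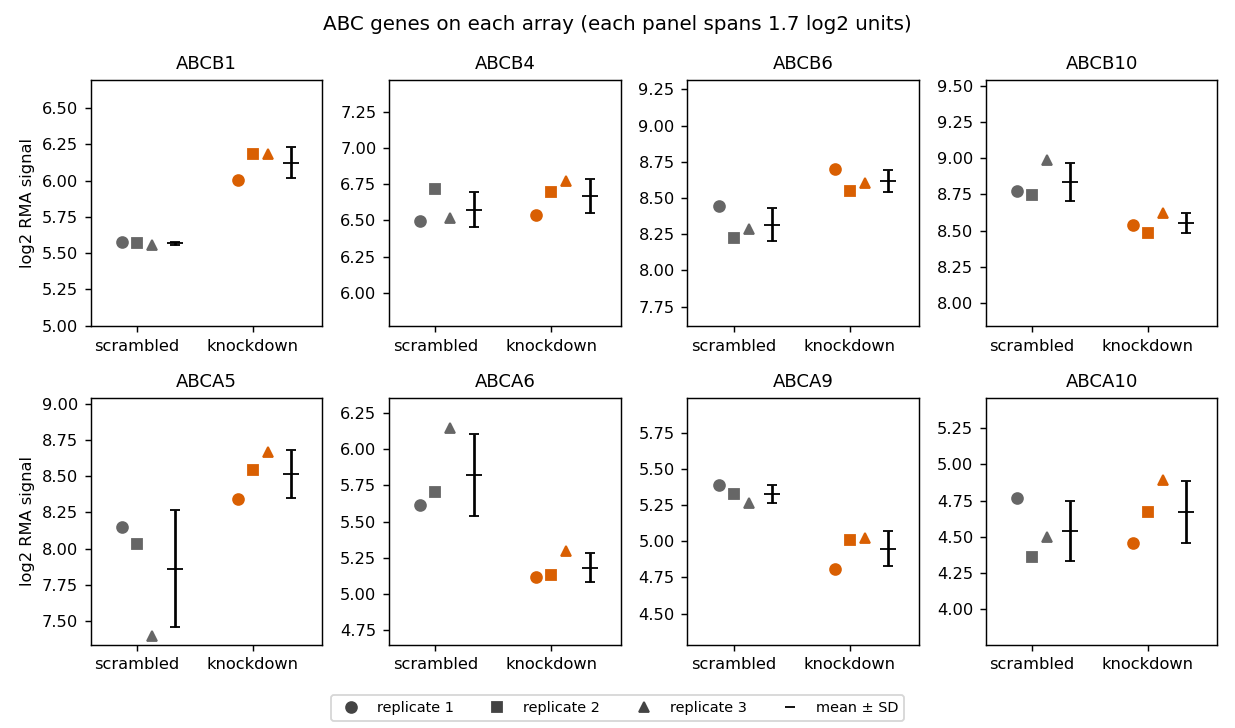
Log2 RMA signal (vertical axis) on each array for 8 ABC genes, with symbols for replicates 1 to 3 and, beside them, the mean and SD (n = 3). Each panel spans the same range around its own gene's mean. ABCB1 and ABCA9 separate the groups with little spread, ABCB4 and ABCA10 overlap, and scrambled replicate 3 lies apart at the bottom for ABCA5 and at the top for ABCA6.

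The second group of changes lay in a run of 5 subfamily A genes on chromosome 17, in the order ABCA8, ABCA9, ABCA6, ABCA10 and ABCA5. These close relatives are thought to handle lipids. In this run ABCA6 and ABCA9, next to each other, fell, while ABCA5 at the end of the run lay above 0 and did not pass. Promoters are shown for these 3 because they lie in 1 run of genes and read in opposite directions, with ABCA10 between ABCA6 and ABCA5. All are 300 bases on the minus strand of GRCh38.p14 from RefSeq, with the same motifs in capitals: ABCA9 at chr17:69060878-69061177, ABCA6 at chr17:69141846-69142145 and ABCA5 at chr17:69327084-69327383.
ABCA9: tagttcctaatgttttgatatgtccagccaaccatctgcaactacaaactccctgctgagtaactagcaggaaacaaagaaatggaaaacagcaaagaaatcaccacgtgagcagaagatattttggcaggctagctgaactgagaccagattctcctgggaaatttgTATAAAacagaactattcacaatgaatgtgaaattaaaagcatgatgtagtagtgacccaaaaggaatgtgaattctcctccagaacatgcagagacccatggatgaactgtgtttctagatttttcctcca
ABCA6: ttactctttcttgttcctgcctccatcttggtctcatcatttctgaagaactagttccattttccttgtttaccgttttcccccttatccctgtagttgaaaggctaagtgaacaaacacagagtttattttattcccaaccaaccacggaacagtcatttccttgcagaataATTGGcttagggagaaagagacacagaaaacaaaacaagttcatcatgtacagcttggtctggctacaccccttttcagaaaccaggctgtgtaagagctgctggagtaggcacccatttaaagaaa
ABCA5: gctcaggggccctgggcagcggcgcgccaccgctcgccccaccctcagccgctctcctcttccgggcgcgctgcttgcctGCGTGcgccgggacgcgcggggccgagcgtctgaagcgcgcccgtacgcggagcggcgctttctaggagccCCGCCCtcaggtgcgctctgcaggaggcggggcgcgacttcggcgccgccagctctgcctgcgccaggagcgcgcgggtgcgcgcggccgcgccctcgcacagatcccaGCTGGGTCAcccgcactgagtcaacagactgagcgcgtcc
The windows differ in base composition. ABCA9 has 39.7% G and C with 1 CpG, ABCA6 has 41.7% with 2 CpG, and ABCA5 has 76.3% with 45 CpG. The median window in the table has 58.7% G and C and 14 CpG. The windows of ABCA10 have at most 32.3% G and C, less than those of ABCA9 and ABCA6. ABCA10 had a log2 fold change of 0.13 ± 0.13 (SE) with overlapping groups, and did not pass, so its direction is not established. Whether base composition goes with the direction of change was not tested. ABCA9 has TATAAA 82 bases before the start, ABCA6 has CCAAT on the reverse strand 77 bases before it, and ABCA5 has GCGTG, a GC box and, after the start, TGACNNNGC. TATAAA is found in 11.5% of all windows, the GC box in 45.0% and TGACNNNGC in 13.3%.

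ABCA6 read 5.62, 5.70 and 6.15 on scrambled replicates 1 to 3 and 5.12, 5.13 and 5.30 on knockdown replicates 1 to 3. Every knockdown array lay below every scrambled array, and scrambled replicate 3 was the highest. ABCA6 fell from 5.82 ± 0.28 to 5.18 ± 0.10 (SD, n = 3 each), a log2 fold change of −0.64 ± 0.13 (SE; 95% interval −0.94 to −0.34), or 1.56-fold lower (limma adjusted p = 0.0348). The call was lost without knockdown replicate 1, 2 or 3 (adjusted p = 0.139, 0.14 and 0.0849, with values of −0.61, −0.61 and −0.70) and without scrambled replicate 2 (0.0813, with −0.70). Without scrambled replicate 3 the value was −0.48 and passed.

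ABCA9 read 5.39, 5.33 and 5.27 on the scrambled and 4.81, 5.01 and 5.02 on the knockdown arrays. The groups were apart by 0.24, and here scrambled replicate 3 was the lowest of its group. ABCA9 fell from 5.33 ± 0.06 to 4.95 ± 0.12 (SD, n = 3 each), a log2 fold change of −0.38 ± 0.08 (SE; 95% interval −0.56 to −0.20), or 1.3-fold lower (limma adjusted p = 0.0358). The call was lost without knockdown replicate 1, 2 or 3 (adjusted p = 0.12, 0.105 and 0.0892, with values of −0.31, −0.41 and −0.42) and without scrambled replicate 1 or 2 (0.0695 and 0.12, with −0.35 and −0.38). It held without scrambled replicate 3. ABCA6 and ABCA9 also missed the threshold when p-values were adjusted over all deposited probe sets (adjusted p = 0.129 and 0.116), where 0.511% of probe sets passed.

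ABCA5, found in endosomes and lysosomes, read 8.15, 8.03 and 7.40 on the scrambled and 8.34, 8.54 and 8.66 on the knockdown arrays. The groups did not overlap, but scrambled replicate 3 lay far below its group. The log2 fold change was 0.66 ± 0.18 (SE; 95% interval 0.25 to 1.06), the highest of any member, and did not pass (limma adjusted p = 0.0892). It was 0.43 without scrambled replicate 3, and 0.80 without scrambled replicate 1, where it passed (adjusted p = 0.0488). ABCA8 and ABCA10, the other members of the run, overlapped between groups, with log2 fold changes of −0.01 ± 0.09 and 0.13 ± 0.13 (SE; adjusted p = 0.96 and 0.668). ABCA10 read 4.77, 4.36 and 4.50 on the scrambled and 4.46, 4.67 and 4.89 on the knockdown arrays, a wide spread in both groups.

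The log2 ratio of ABCA6 to ABCA5 within an array was −2.04 ± 0.69 with scrambled shRNA and −3.33 ± 0.10 with the knockdown (SD, n = 3 each). It was lower on every knockdown array, by 1.30 ± 0.40 on average (SE; two-sided exact permutation p = 0.1, the smallest possible). This outcome was fixed in advance, since each gene alone already separated the groups, in opposite directions, and it adds no support. ABCA6 against ABCA10 gave a difference of −0.77 ± 0.25 and ABCA10 against ABCA5 one of −0.53 ± 0.23, with the same exact permutation p. The log2 ratio of ABCA6 to ABCA5 is the sum of these log2 ratios, so they are not separate results. The ratio of ABCA8 to ABCA9 differed by 0.37 ± 0.16 and that of ABCA9 to ABCA6 by 0.26 ± 0.21, and both overlapped between groups (exact permutation p = 0.2 and 0.3). Several of these differences depended on scrambled replicate 3. Without it the difference was −0.90 for ABCA6 to ABCA5, −0.59 for ABCA6 to ABCA10, −0.32 for ABCA10 to ABCA5 and 0.07 for ABCA9 to ABCA6. The last was 0.39 without scrambled replicate 1. The difference of ABCB4 to ABCB1 ran from −0.51 to −0.39 with each array left out. These values were added after the data had been seen. The ratios of ABCC12 to ABCC11 and of ABCG5 to ABCG8 differed by 0.05 ± 0.05 and −0.04 ± 0.06, with an exact permutation p of 0.5 each. After adjustment over the 8 pairs no p was under 0.2. The pairs were chosen after the values had been seen. These genes are similar in sequence, and whether their probe sets share signal was not tested.

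Outside the run, WIPI1, an autophagy protein that binds phosphoinositides, rose by 0.67 ± 0.07 (SE; limma adjusted p = 0.00307). It is separated from ABCA8 in gene order by FAM20A, which read 0.10 and did not pass. PRKAR1A on that side and MAP2K6 and KCNJ16 on the other lay between −0.05 and 0.11, and KCNJ2 read 0.19 ± 0.06 with groups that did not overlap (adjusted p = 0.137). Genes that passed in opposite directions thus stood within a few genes of each other.

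**Figure D3:**
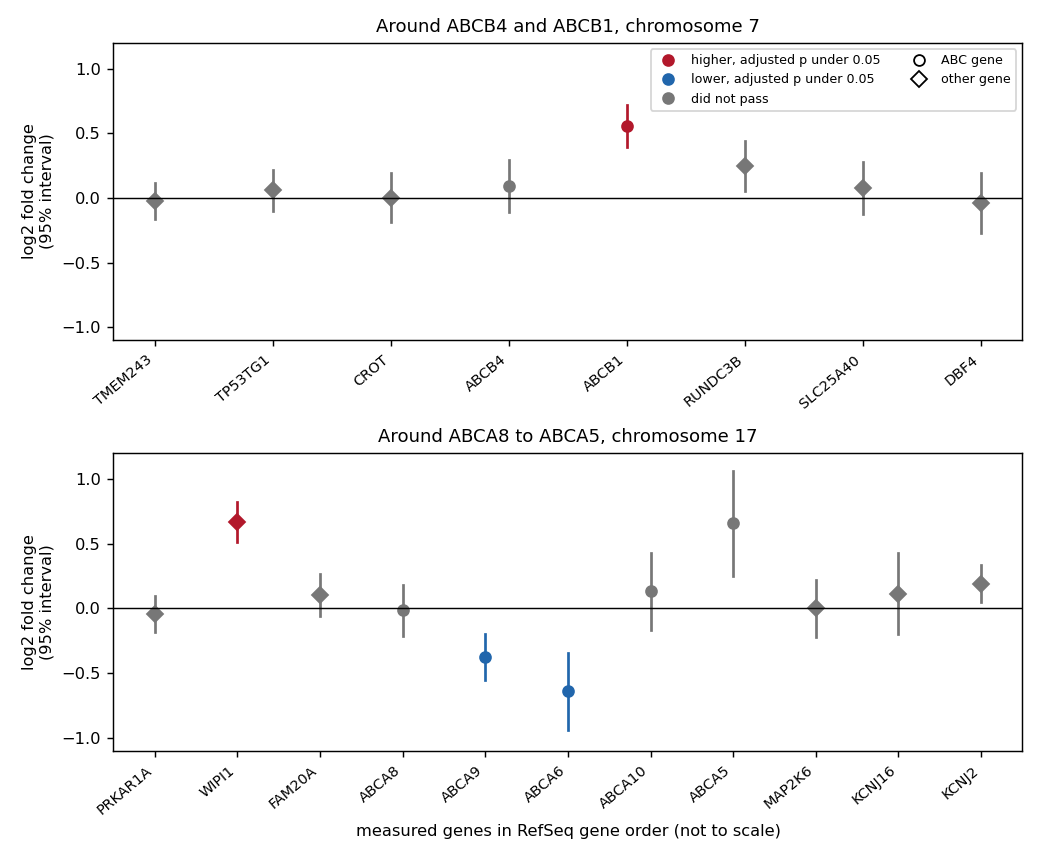
Log2 fold change with 95% interval (vertical axis) for measured genes in RefSeq order around ABCB4 and ABCB1 (top) and around ABCA8 to ABCA5 (bottom). Circles are ABC genes and diamonds other genes, and distances along the horizontal axis are not to scale. ABCB1 stands alone in its row at 0.56, while in the lower row WIPI1 is at 0.67, ABCA9 and ABCA6 at −0.38 and −0.64, and ABCA5 at 0.66.

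The remaining 7 members of subfamily A include the best-known lipid exporters, and none passed. ABCA1, which loads cholesterol onto apolipoprotein A-I, read 5.96, 6.01 and 6.005 on the scrambled and 5.93, 5.90 and 5.96 on the knockdown arrays. The log2 fold change of ABCA1 was −0.06 ± 0.06 (SE; 95% interval −0.19 to 0.08). ABCA3, a phospholipid transporter of lamellar bodies, read 7.52, 7.58 and 7.90 on the scrambled and 7.38, 7.30 and 7.48 on the knockdown arrays. Its groups were apart by 0.04, and its log2 fold change of −0.28 ± 0.10 did not pass (adjusted p = 0.204). It was −0.16 without scrambled replicate 3. ABCA2 and ABCA7, which act on lipids of endolysosomes and of the plasma membrane, had log2 fold changes of −0.01 and 0.05. The retinal ABCA4, the keratinocyte lipid transporter ABCA12 and ABCA13 were dim and read 0.04, −0.10 and 0.04.

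Subfamily C holds the multidrug resistance-associated proteins, several of which export glucuronides, the products of UGT enzymes. None of its 11 members passed, and their log2 fold changes were the narrowest of any subfamily with more than 3 members, from −0.08 to 0.11 with a median of 0.00046. For 7 of the 11 the mean level lay below the median probe set, and RMA compresses differences of dim probe sets. ABCC1, a broad exporter of glutathione and glucuronide conjugates, read 10.10, 10.07 and 10.19 on the scrambled and 10.07, 10.02 and 10.04 on the knockdown arrays. The groups were apart by 0.0087, and the log2 fold change was −0.08 ± 0.06 (SE; 95% interval −0.22 to 0.07). ABCC2 and ABCC3, the main exporters of glucuronides in liver and gut, had log2 fold changes of 0.07 ± 0.07 (95% interval −0.09 to 0.23) and 0.11 ± 0.09 (−0.09 to 0.31), and both overlapped between groups. Both were dim, at mean levels of 5.17 and 5.34, which limits what can be read for them.

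ABCC4, which exports cyclic nucleotides and steroid conjugates, read 8.90, 8.75 and 9.04 on the scrambled and 8.84, 8.87 and 8.89 on the knockdown arrays. Its log2 fold change was −0.03 ± 0.08 (SE; 95% interval −0.21 to 0.15). ABCC5, a second exporter of cyclic nucleotides, and ABCC10 had log2 fold changes of −0.07 and 0.0064. The sulphonylurea receptors ABCC8 and ABCC9, regulatory subunits of potassium channels, read 0.03 and −0.02. Their channel partners KCNJ8 and KCNJ11 read 0.09 and 0.06 and did not pass. ABCC11 and ABCC12, neighbours on chromosome 16, read −0.05 and 0.00046, and ABCC13, a pseudogene in humans, read 0.001.

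Members of subfamily D import fatty acids into peroxisomes or, for ABCD4, move cobalamin out of lysosomes. ABCD2, a carrier of very long-chain fatty acids, read 7.29, 7.31 and 7.43 on the scrambled and 7.47, 7.45 and 7.55 on the knockdown arrays. The groups were apart by 0.02, and the log2 fold change was 0.15 ± 0.07 (SE; adjusted p = 0.313). ABCD4 had a log2 fold change of −0.14 ± 0.07 (adjusted p = 0.329), also without overlap. ABCD3 overlapped, at −0.07 ± 0.12, and lay at 0.08 without scrambled replicate 3. In the list of peroxisomal import and fatty acid oxidation genes, 1 of 13 measured genes fell and 0 rose. Over all genes 1.69% passed as lower and 1.92% as higher. The gene that fell was PEX19, the chaperone that brings membrane proteins, ABCD proteins among them, to peroxisomes. PEX19 fell from 8.91 ± 0.04 to 8.49 ± 0.08 (SD, n = 3 each), by 0.42 ± 0.07 (SE; limma adjusted p = 0.0149). ACAA1, a peroxisomal thiolase, read −0.34 ± 0.08 and did not pass (adjusted p = 0.0653).

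The ribosome-associated members all lay below 0 and none passed. ABCE1, which splits ribosomes after translation ends, read 9.0002, 9.02 and 9.40 on the scrambled and 8.96, 9.07 and 9.02 on the knockdown arrays. Its log2 fold change was −0.13 ± 0.11 (SE), and 0.0037 without scrambled replicate 3. ABCF2 read 7.99, 8.20 and 8.94 on the scrambled and 7.76, 8.002 and 7.79 on the knockdown arrays. Its log2 fold change was −0.52 ± 0.21 (SE; adjusted p = 0.231), and −0.24 without scrambled replicate 3. ABCF1, which binds initiation factor eIF2, read −0.03 ± 0.10, and lay at 0.10 without that array. ABCF3 read −0.16 ± 0.10, and −0.08 without it. Of 14 genes for translation partners such as release factors and eIF2 subunits, 0 passed in limma, 3 had an unadjusted p under 0.05 (18.2% of all genes did) and 11 lay below 0 (50.7% of all genes did). The list averaged 9.22 on scrambled replicate 3, 8.98 and 9.007 on the other scrambled arrays and 8.95 to 9.0 on the knockdown arrays, and 6 of the 14 lay below 0 without scrambled replicate 3. The smallest p were those of EIF5, at −0.30 ± 0.10 (adjusted p = 0.134), and ETF1, at −0.31 ± 0.11 (adjusted p = 0.184).

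Subfamily G holds sterol exporters and the drug pump ABCG2, and none of its 5 members passed or separated the groups. ABCG2, the breast cancer resistance protein, was dim and read 4.04, 3.96 and 3.99 on the scrambled and 3.87, 3.95 and 3.98 on the knockdown arrays. The difference was −0.06 ± 0.06 (SE; 95% interval −0.21 to 0.09) on the log2 scale. ABCG1, which passes cholesterol to high-density lipoprotein, read 7.03, 7.07 and 7.48 on the scrambled and 7.11, 6.97 and 6.96 on the knockdown arrays. Its log2 fold change was −0.18 ± 0.12, and −0.04 without scrambled replicate 3. ABCG4 read −0.06, and ABCG5 and ABCG8, which form the intestinal and biliary sterol pump and lie side by side on chromosome 2, read 0.02 and 0.06.

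Sorted by build, the members with a full set of domains in a single chain were 26, of which 13 lay above and 13 below 0, and all 3 calls were among them. Over all genes 3.61% passed, and 3 calls are too few to compare the builds. Short members that pair up (ABCB6, ABCB8, ABCB9, ABCB10 and subfamilies D and G) were 12, with 4 above and 8 below 0, and none of them passed. The 4 members without membrane segments all lay below 0, and ABCE1 and ABCF1 did not without scrambled replicate 3. The pseudogene ABCC13 was left out of this count. By base composition, the 51 promoter windows found for 34 of the members had a median of 61.0% G and C against 58.7% for all windows. The GC box was in 25 of the 51 windows, or 49.0% against 45.0%, CCAAT in 12, or 23.5% against 34.6%, and TGACNNNGC in 12, or 23.5% against 13.3%. Several windows belong to a single gene, so they are not independent.

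Lists of partner and regulator genes held calls at about the share found over all genes. Of 105 measured genes on 9 lists, 3 rose and 1 fell, against the background of 3.61%. Among 18 regulators of ABC gene transcription, AHR, the aryl hydrocarbon receptor, rose by 0.39 ± 0.06 (SE; limma adjusted p = 0.0157), and 17 did not pass. Among 13 sterol trafficking genes, SOAT2, a cholesterol-esterifying enzyme, rose by 0.39 ± 0.08 (adjusted p = 0.0436), and among 17 genes of mitochondrial iron-sulphur and haem metabolism SLC25A37, the mitochondrial iron importer mitoferrin-1, rose by 0.35 ± 0.06 (adjusted p = 0.0208). CPOX, an enzyme of haem synthesis, read −0.28 ± 0.07 and SREBF1, a regulator of lipid synthesis, −0.27 ± 0.10, and neither passed. STARD3, of the sterol trafficking list, read −0.17 ± 0.06 with groups that did not overlap, and did not pass (limma adjusted p = 0.205).

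Family members under other symbols did not pass either. TAP1 and TAP2, which carry peptides to MHC class I molecules and belong to subfamily B, had log2 fold changes of −0.22 ± 0.06 and −0.15 ± 0.11 (SE; adjusted p = 0.116 and 0.539), and CFTR, a chloride channel of subfamily C, was dim and read 0.06 ± 0.07. Of 10 measured peptide loading partners 0 passed in limma, and 2 had an unadjusted p under 0.05, where 18.2% of all genes did. In this list 9 genes lay below 0, where 50.7% of all genes did, with ERAP2 at −0.22 and TAPBPL at −0.19. Of 15 other drug and conjugate transporters 0 passed in limma and 1 had an unadjusted p under 0.05, where 18.2% of all genes did. SLCO4A1, an organic anion uptake transporter, read 0.29 ± 0.07 with groups that did not overlap (adjusted p = 0.0535), and ATP7A, a copper pump, read 0.15.

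**Figure D4:**
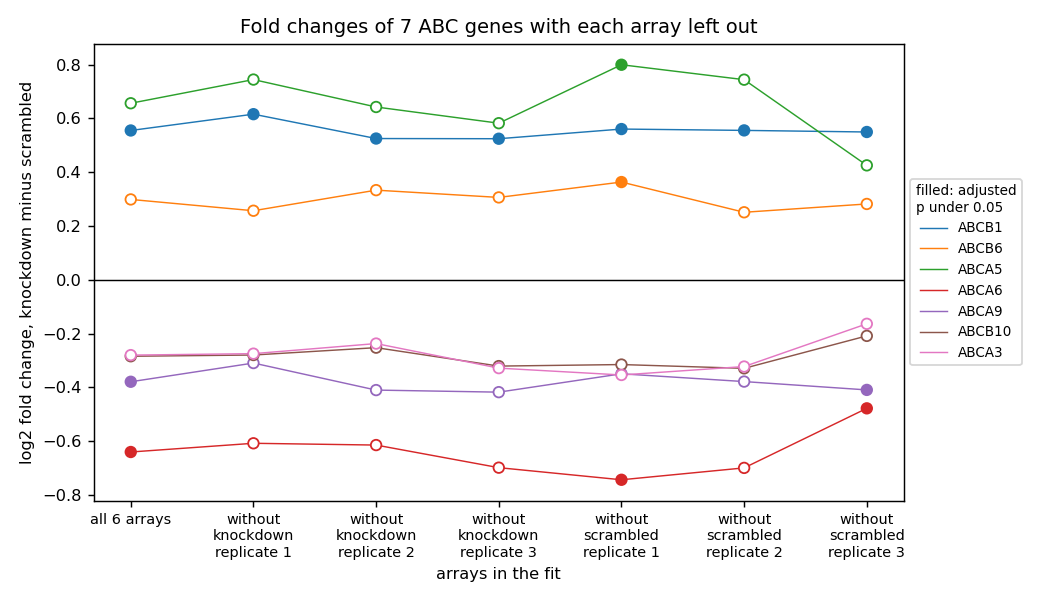
Log2 fold change (vertical axis) of 7 ABC genes with all 6 arrays and with each array left out in turn. Filled points have an adjusted p under 0.05 over all genes, and lines only join the values of a gene. ABCB1 stays filled throughout between 0.52 and 0.62, ABCA6 and ABCA9 stay below 0 but lose the call in 4 and 5 of the 6 fits, and ABCA5 ranges from 0.43 to 0.80.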

How the data were processed

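Total RNA was labelled with a whole-transcript biotin kit and hybridised to 1 array per sample, per the labels' protocols. The deposited values are log2 signals made with RMA, per the submitters' processing notes. For its version, the library files and the genome build, not given in the sources used here, nothing was assumed. All 32321 probe sets were taken as deposited, on a scale of 2.20 to 14.3. RMA compresses differences of dim probe sets, and 23 of the 43 ABC genes had a mean below the median probe set. The arrays, 3 per group, limit precision.

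Probe sets were named through the platform annotation: 19158 have 1 symbol, 1388 several, and 11775 are unlisted. Each gene was read by its brightest single-symbol probe set (by the mean of 6 arrays), giving 18404 genes. Groups came from the labels. limma 3.58.1 (R 4.3.3) was fitted to all genes without covariates, tests were two-sided, and p-values were adjusted by Benjamini-Hochberg. Ratios of 7 adjoining pairs of members, and of ABCA6 to ABCA5, were compared with exact permutation tests (SciPy 1.17.1). The test was tested on simulated data with independent normal noise, in which 200 of the 18404 genes were changed. It recovered 52.5% of log2 changes of 0.5 and 96.5% of log2 changes of 1. Of the genes called, 3.67% and 3.02% were false. Changes near 0.5 can thus be missed with 3 arrays per group. Gene order and promoters came from RefSeq tables of GRCh38.p14, and no coordinates are given for probe sets.

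Every ABC member may be named; values in full are given for members that passed, the 2 members of each subfamily with the smallest p, the extremes, the known efflux pumps and sterol or conjugate exporters, and, of each list, the genes that passed and the 2 with the smallest p. The members and lists were chosen with earlier results of these data known. Alternatives were another normalisation, centring, a filter on dim genes, other variance priors, array weights, other sets of probe sets, a replicate block, a looser threshold, and leaving out each array. Some family members are not reported here.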

Additional observations from a re-analysis of the deposited data

How the results depend on the processing

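ABCB1 kept its direction and passed in every setting that tested it, with values from 0.52 to 0.62; ABCA6 and ABCA9 kept their direction in all. The ABC genes called higher numbered 1 with all arrays, 4 with array weights, 3 at an adjusted p under 0.1 and 0 among the brighter genes (18 members tested, none of the 3 called genes among them), and 1 to 3 with an array left out. Those called lower numbered 2 with all arrays, 5 with array weights, 1 with the replicate block and 0 among the brighter genes and over all deposited probe sets, and 0 to 2 with an array left out. Over all genes, calls numbered 665, against 3511 with array weights (19.1%), 165 over all deposited probe sets, 367 with the replicate block and 1207 at an adjusted p under 0.1, and 152 to 759 with an array left out; such fits have fewer degrees of freedom. Among the 9202 brighter genes 796 passed, or 8.65%, where 0 of the 18 members did. With array weights ABCA5, ABCB6, ABCD2, ABCA3, ABCB10 and ABCD4 also passed. That fit gave scrambled replicate 2 a weight of 6.12, against 0.55 and 0.25 for scrambled replicates 1 and 3. Its scrambled group thus rested mostly on 1 array. With the replicate block ABCA9 lost its call (adjusted p = 0.0877). Same-numbered arrays did not deviate together (correlations of −0.0539, −0.0666 and −0.0334), and the main fit did not pair them. The members' median log2 fold change, −0.025, was −0.048 with arrays centred on their median, where that of all genes was −0.026, and −0.073 among the brighter genes. It ran from −0.031 to −0.0049 with an array left out, the last without scrambled replicate 3.

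Small values turned sign in some settings, and none of them passed. With array weights ABCA8 read 0.017, ABCB4 −0.0045, ABCB11 0.0063, ABCC4 0.094, ABCC8 −0.016, ABCC12 −0.017, ABCC13 −0.013, ABCF1 0.078 and ABCG5 −0.046. With arrays centred, ABCC10 read −0.017, ABCC12 −0.023, ABCC13 −0.023 and ABCG5 −0.0063. After another quantile normalisation ABCC8 read −0.00053 and ABCC12 −0.0079. With an array left out, values ran from −0.025 to 0.00039 for ABCA2, −0.063 to 0.053 for ABCA8, −0.088 to 0.062 for ABCB11, −0.10 to 0.038 for ABCC4, −0.041 to 0.083 for ABCC8, −0.059 to 0.029 for ABCC9, −0.025 to 0.051 for ABCC10, −0.034 to 0.063 for ABCC12, −0.0095 to 0.00996 for ABCC13, −0.19 to 0.077 for ABCD3, −0.20 to 0.0037 for ABCE1, −0.095 to 0.099 for ABCF1 and −0.023 to 0.047 for ABCG5. The cause was not tested. Dim probe sets limit what can be read for ABCG2, ABCB5, ABCB11 and ABCA8. The called genes ABCB1, ABCA6 and ABCA9 were brighter than these but also lay below the median probe set.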
